A study of Bos taurus and Sus scrofa with 10 samples.

Results

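The genes described here encode enzymes that oxidise or remove modified DNA bases. They are the TET dioxygenases TET1, TET2 and TET3, the DNA glycosylases TDG, MBD4, UNG and SMUG1, and the downstream repair factors APEX1, PARP1 and XRCC1. They were taken by exact symbol from the deposited gene tables. All 10 listed genes had a row in the cow table, of 22845 rows, and 9 had a row in the pig table, of 21867 rows. APEX1 has no row under that symbol in the pig table and is not analysed there. Each symbol matched a single row per table.

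RNA was sequenced from cow (Bos taurus) and pig (Sus scrofa) oocytes, 2-4 cell embryos, 8-16 cell embryos, morulae and blastocysts. There was 1 library for each of the 5 stages in each species, 10 in all, so no difference below has a replicate check and no test between stages was possible. The labels describe each group by species and stage alone, with no genotype, breed or treatment, and do not say how many oocytes or embryos were pooled or how the embryos were obtained. RNA was isolated with a PicoPure kit, amplified as cDNA with the Ovation RNA-Seq System V2 and then by 8 cycles of PCR. Since the described protocol names no molecular identifiers, several reads can come from 1 molecule, and the 95% intervals below cover counting error only.

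TET enzymes convert methylcytosine in DNA to hydroxymethylcytosine and then to formylcytosine and carboxylcytosine. TDG cuts out the last 2 of these bases, and the base excision repair pathway then fills in an unmodified cytosine. TET3 is known as the maternal TET enzyme that oxidises the paternal genome after fertilisation in the mouse, and TET1 is known for its high expression in pluripotent cells.

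Levels are given as reads per 1000000 reads of the library (RPM), which are not divided by gene length and so compare a gene between stages, not one gene with another. They are shares of the RNA of a library: in these bulk samples fewer cells of a type and less RNA per cell cannot be told apart. Library totals ran from 3899291 to 14182046 reads in cow and from 3002751 to 4138616 reads in pig, and 3 reads, the limit that a count of 0 allows, correspond to 0.212 to 0.769 RPM in cow and 0.725 to 0.999 RPM in pig. The stage labels were checked on marker genes. The summed level of 9 oocyte markers between the first and last stage went from 6084 to 0.282 RPM in cow, where 8 of the 9 had no read at the end, and from 7632 to 22.3 RPM in pig. Trophectoderm and endoderm markers (7 in cow, 8 in pig) stood at 23.5 and then 3298 RPM in cow, and at 5.92 and then 7401 RPM in pig. The 10 cumulus cell markers in the cow table summed to 342, 346, 99.96, 34.4 and 83.2 RPM from oocyte to blastocyst, highest at the first 2 stages, where TET2 and MBD4 were also high. In the cow oocyte library STAR stood at 157 RPM, HAS2 at 141 RPM and FSHR at 37.3 RPM, while FOXL2, AMH, AMHR2 and INHA had 0 reads. The 7 in the pig table summed to between 35.9 and 69.5 RPM, with STAR at 43.2 RPM and INHA and TNFAIP6 at 0 reads in the oocyte library. The part of cumulus RNA in the levels below was not tested. Mitochondrial reads took 4.40% of the cow oocyte library and 30.2% of the cow blastocyst library, and 6.06% and 18.6% in pig.

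A gene is said to have risen or fallen when its log2(RPM + 1) differed by at least 2 between 2 libraries of a species, which is 4-fold on that scale, with at least 1 RPM in either. The scale understates the change of low genes. Smaller differences are given as values. Folds are ratios of RPM.

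TET1 had the largest log2 difference between oocyte and blastocyst of all members in both species, and its largest step came at the 8-16 cell stage in cow and at the morula in pig. In cow (UMD3.1 chromosome 28, 25073149 to 25191276; all cow positions are on that build) its levels, listed here and below in the order oocyte, 2-4 cell, 8-16 cell, morula, blastocyst, were 2.03 (10 reads), 2.48, 203, 459 and 625 RPM. The oocyte and 2-4 cell libraries were low, and their intervals overlapped (1.10 to 3.73 RPM and 1.38 to 4.44 RPM), while the 3 later libraries were each above the one before. From the 2-4 cell to the 8-16 cell stage cow TET1 rose 81.9-fold (45.6 to 165). In pig (Sscrofa11.1 chromosome 14, 71675671 to 71812694, the build of all pig positions) TET1 stood at 4.14, 10.4, 14.8, 109.9 and 420.4 RPM in the same order of stages. The pig 2-4 cell and 8-16 cell libraries had overlapping intervals, and the morula and blastocyst libraries stood above them. Pig TET1 rose 7.40-fold (5.44 to 10.3) from the 8-16 cell stage to the morula, and was a further 3.83-fold higher in the blastocyst library (3.39 to 4.32), a log2 difference of 1.93 that was 2.04, past the threshold, with median scaling. The cow TET1 span encloses a U6 small nuclear RNA gene on the opposite strand, which had 0 reads in all 5 cow libraries. The summed oocyte markers fell from 5451 to 786 RPM at the cow 8-16 cell stage, and from 3778 to 257 RPM at the pig morula. These are the stages of the largest TET1 steps, and whether the later timing in pig is particular to TET1 was not tested.

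TET2 went opposite ways. In cow (chromosome 6, 21176966 to 21218829) it stood at 157, 169.6, 48.2, 18.7 and 16.7 RPM. The first 2 libraries were high and the last 2 low, with overlapping intervals within each pair. Over the whole course cow TET2 fell 9.39-fold (8.11 to 10.9), with no single step reaching the threshold. In pig (chromosome 8, 116415272 to 116545514) TET2 stood at 70.5, 98.3, 94.4, 92.9 and 488 RPM. The 2-4 cell, 8-16 cell and morula libraries had overlapping intervals, and the blastocyst library was 5.25-fold above the morula library (4.62 to 5.98), a rise.

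TET3 was low in the morula library of both species. In cow (chromosome 11, 10546064 to 10646706) it stood at 38.7, 67.4, 22.6, 2.56 and 28.6 RPM. It fell 8.83-fold to the cow morula (4.64 to 18.9) and rose 11.14-fold from there to the blastocyst (5.99 to 23.4), and the blastocyst and 8-16 cell intervals overlapped. In pig (chromosome 3, 68924990 to 68968883) TET3 stood at 27.5, 33.6, 39.5, 4.33 and 5.36 RPM. The first 3 libraries were high, and the last 2 were low with overlapping intervals. Pig TET3 fell 9.12-fold to the morula (5.14 to 17.6), close to the cow value at the same step, and over the whole course 5.13-fold (3.14 to 8.79). Cow TET3 differed by -0.43 on the log2 scale over the whole course.

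**Figure D1:**
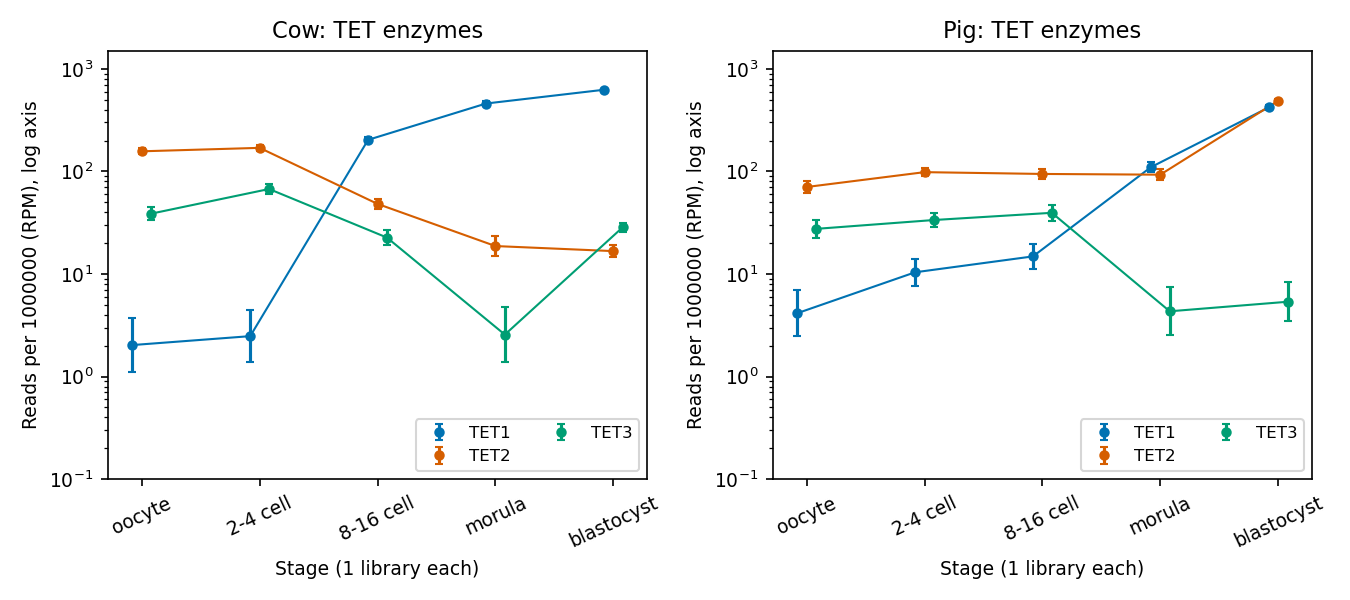
Levels of TET1, TET2 and TET3 in RPM on a log axis against stage, cow on the left and pig on the right, 1 library per point, with bars for 95% Wilson intervals (counting error only). In cow TET1 goes from 2.48 to 203 RPM between the 2-4 cell and 8-16 cell libraries while TET2 goes from 169.6 to 48.2 RPM; in pig TET1 ends at 420.4 RPM, TET2 at 488 RPM and TET3 at 5.36 RPM.

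The ratio of reads between a pair of TET genes within a library does not depend on how the library was scaled, and gene length cancels when a ratio is followed between stages. The log2 ratio of TET1 to TET3 reads in cow was -4.19 (-5.09 to -3.29), -4.70, 3.16, 7.41 and 4.45 (4.31 to 4.59) in stage order. Its largest step in cow was 7.86 (6.97 to 8.75), at the 8-16 cell stage. In pig the same ratio was -2.69 (-3.49 to -1.89), -1.68, -1.40, 4.61 and 6.26 (5.63 to 6.89), and its largest step, 6.02 (5.09 to 6.94), came at the morula. From oocyte to blastocyst the ratio shifted towards TET1 by 8.64 in cow (7.73 to 9.55) and by 8.95 in pig (7.93 to 9.96), with overlapping intervals.

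The other ratios ended apart in the 2 species. TET1 to TET2 shifted by 11.4 in cow (10.5 to 12.3) and by 3.83 in pig (3.05 to 4.60) from oocyte to blastocyst. TET2 to TET3 went from 2.02 to -0.77 in cow, a shift of -2.79 (-3.11 to -2.46), and from 1.35 to 6.47 in pig, a shift of 5.12 (4.40 to 5.84). Before the morula the TET2 to TET3 ratio lay between 1.09 and 2.02 in cow and between 1.25 and 1.55 in pig. No replicate bears on any of these shifts.

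**Figure D2:**
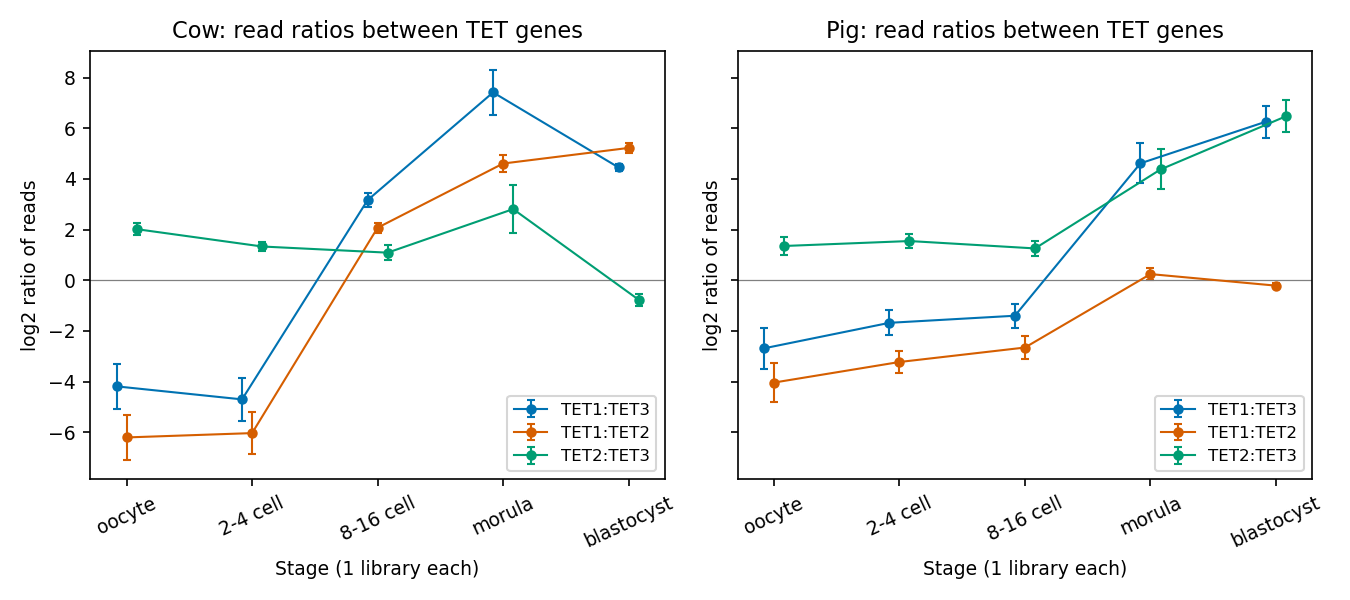
Log2 ratio of the reads of 2 TET genes within a library against stage (0.5 read added to both counts), cow on the left and pig on the right, with 95% intervals from the read counts. TET1 to TET3 turns positive at the 8-16 cell stage in cow (3.16) and at the morula in pig (4.61), and TET2 to TET3 ends at -0.77 in cow and 6.47 in pig.

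To see which other genes had a like course, species-centred log2(RPM + 1) profiles over the 10 libraries were compared for 7527 symbols shared by both tables with at least 5 RPM in some library of each species. The measure is the root mean square difference of the profiles, in log2 units. Nearest to TET1 were GPD1L, a relative of glycerol-3-phosphate dehydrogenase (0.56), WWTR1, which encodes the Hippo pathway coactivator TAZ (0.77), and PPM1K, a mitochondrial protein phosphatase (0.77), against a median of 3.03 over all symbols. Between oocyte and blastocyst GPD1L went from 0.203 to 106 RPM in the cow libraries, and in pig from 36.1 to 1823 RPM. Nearest to TET2 were ATP6V1C1, a subunit of the proton-pumping V-ATPase (0.28), MAGIX (0.32) and STAP2 (0.34), against a median of 1.57. MAGIX and STAP2 reached 5 RPM in pig in the blastocyst library alone (5.63 and 6.17 RPM), so the minimum itself fixed their pig course, and they are given as a description. Like TET2, ATP6V1C1 had opposite directions: cow levels were 205 RPM first and 23.3 RPM last, and pig levels 62.8 and 366 RPM. Nearest to TET3 were SSFA2 (0.37) and WASF3, a regulator of actin assembly (0.40), against a median of 1.73. SSFA2 had its low point of 23.1 RPM in the cow morula library and stood at 44.3 and 43.4 RPM in the last 2 pig libraries. Among the TET genes themselves the difference was 1.61 between TET2 and TET3, 3.58 between TET1 and TET2 and 4.04 between TET1 and TET3.

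The glycosylases start excision by cutting a base from its sugar. TDG removes thymine paired with guanine as well as formylcytosine and carboxylcytosine. In cow (chromosome 5, 67973222 to 67994056) it had 2, 1, 2, 0 and 284 reads, so that the blastocyst library alone stood above 3 reads, at 20.03 RPM (17.8 to 22.5). Cow TDG rose at least 26.03-fold at the last step, and 49.4-fold over the whole course, with an interval of 13.5 to 410 since 2 oocyte reads stand below it. In pig (chromosome 5, 80437959 to 80492252) TDG stood at 55.1, 28.3, 31.6, 29.97 and 33.5 RPM, highest in the oocyte library and with overlapping intervals over the other 4. Over 35330 bases the pig TDG row overlaps GLT8D2 on the opposite strand, and whether reads were counted by strand is not given in the sources used here. GLT8D2 stood at 57.4, 33.8, 24.3, 0.666 and 0 RPM in the same libraries, so in the blastocyst library TDG had 125 reads while GLT8D2 had none. The part of GLT8D2 reads in the earlier TDG values was not tested.

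MBD4, which removes thymine and uracil opposite guanine at methylated sites, was high in early cow libraries. In cow (chromosome 22, 56949105 to 56958155) it stood at 202, 253, 41.97, 27.4 and 18.5 RPM, and no intervals of neighbouring levels overlapped. Cow MBD4 fell 6.02-fold at the step to the 8-16 cell stage (5.22 to 6.98) and 10.9-fold over the whole course (9.52 to 12.6). In pig (chromosome 13, 68814823 to 68828964) it stood at 14.8, 15.5, 1.58, 14.7 and 6.17 RPM, lowest at the 8-16 cell stage, where the value rests on 5 reads, against 64 and 44 reads in the libraries before and after. It fell 9.79-fold into that library (3.98 to 31.2) and rose 9.28-fold out of it (3.69 to 29.98). The pig MBD4 row overlaps IFT122 by 347 bases on the opposite strand, and IFT122 had its highest pig level in that library (7.26 RPM). Beside these and the U6 gene in cow TET1, no row of either table overlaps a member.

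UNG and SMUG1 both remove uracil, and SMUG1 also removes hydroxymethyluracil. UNG crossed the threshold at no step in either species. In cow (chromosome 17, 66221121 to 66231818) UNG stood at 76.7, 142, 62.4, 35.1 and 53.5 RPM, highest at the 2-4 cell stage and lowest in the morula library. In pig (chromosome 14, 41746499 to 41757846) it stood at 24.9, 30.9, 21.2, 39.6 and 10.7 RPM, lowest in the blastocyst library, 3.70-fold below the morula library (2.56 to 5.43). SMUG1 in cow (chromosome 5, 26015049 to 26019918) had 0, 1, 10, 3 and 191 reads, and rose 17.5-fold (5.90 to 85.6) from the morula to 13.5 RPM in the blastocyst library. SMUG1 in pig (chromosome 5, 19398250 to 19405871) had 1, 0, 4, 18 and 0 reads. It stood at 5.99 RPM in the pig morula library (3.79 to 9.48) and fell at the next step to 0 reads, at least 7.45-fold lower.

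APEX1, PARP1 and XRCC1 act after the base is gone. APEX1 nicks the DNA at the empty sugar, PARP1 senses the nick, and XRCC1 is the scaffold that holds the polymerase and ligase. Cow APEX1 (chromosome 10, 26706595 to 26709174) stood at 15.2, 28.2, 44.4, 26.4 and 58.2 RPM, with overlapping intervals at the 2-4 cell stage and the morula. The blastocyst library was highest, 3.83-fold above the oocyte library (3.02 to 4.92), a log2 difference of 1.87 that reached 2.29, past the threshold, when scaled to non-mitochondrial gene reads.

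PARP1 had its low point in different libraries of the 2 species. In cow (chromosome 16, 30119202 to 30160574) it stood at 91.9, 182, 26.9, 95.7 and 244 RPM. The 8-16 cell library was the low one, after a 6.76-fold fall (5.67 to 8.13), and the oocyte and morula intervals overlapped. In pig (chromosome 10, 14203645 to 14240972) PARP1 stood at 150.4, 101, 115, 96.6 and 23.6 RPM. The 2-4 cell, 8-16 cell and morula libraries lay close together and the blastocyst library was low, with a log2 difference of -1.99 from the morula that was -2.03, past the threshold, when scaled to non-mitochondrial gene reads. From oocyte to blastocyst pig PARP1 fell 6.37-fold (5.07 to 8.09), where cow PARP1 was 2.65-fold higher (2.41 to 2.93), a log2 difference of 1.40.

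XRCC1 had few reads in most libraries. In cow (chromosome 18, 52081208 to 52100015) it had 19, 36, 1, 1 and 101 reads, which is 3.85, 8.11, 0.184, 0.256 and 7.12 RPM. The 8-16 cell and morula libraries were low, and the oocyte and blastocyst intervals overlapped. The fall into the 8-16 cell library was 44.1-fold with an interval of 7.42 to 1788, and the rise to the blastocyst 27.8-fold with an interval of 4.87 to 1108, since 1 read stands on the low side of each. In pig (chromosome 6, 50403693 to 50425691) XRCC1 had 7, 7, 6, 6 and 33 reads. Its first 4 libraries lay between 1.69 and 2.07 RPM with overlapping intervals, and the blastocyst library stood at 8.85 RPM (6.30 to 12.4), a log2 difference of 1.72 from the morula. The log2 ratio of PARP1 to XRCC1 reads in pig shifted by -4.08 at that step (-5.34 to -2.82).

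**Figure D3:**
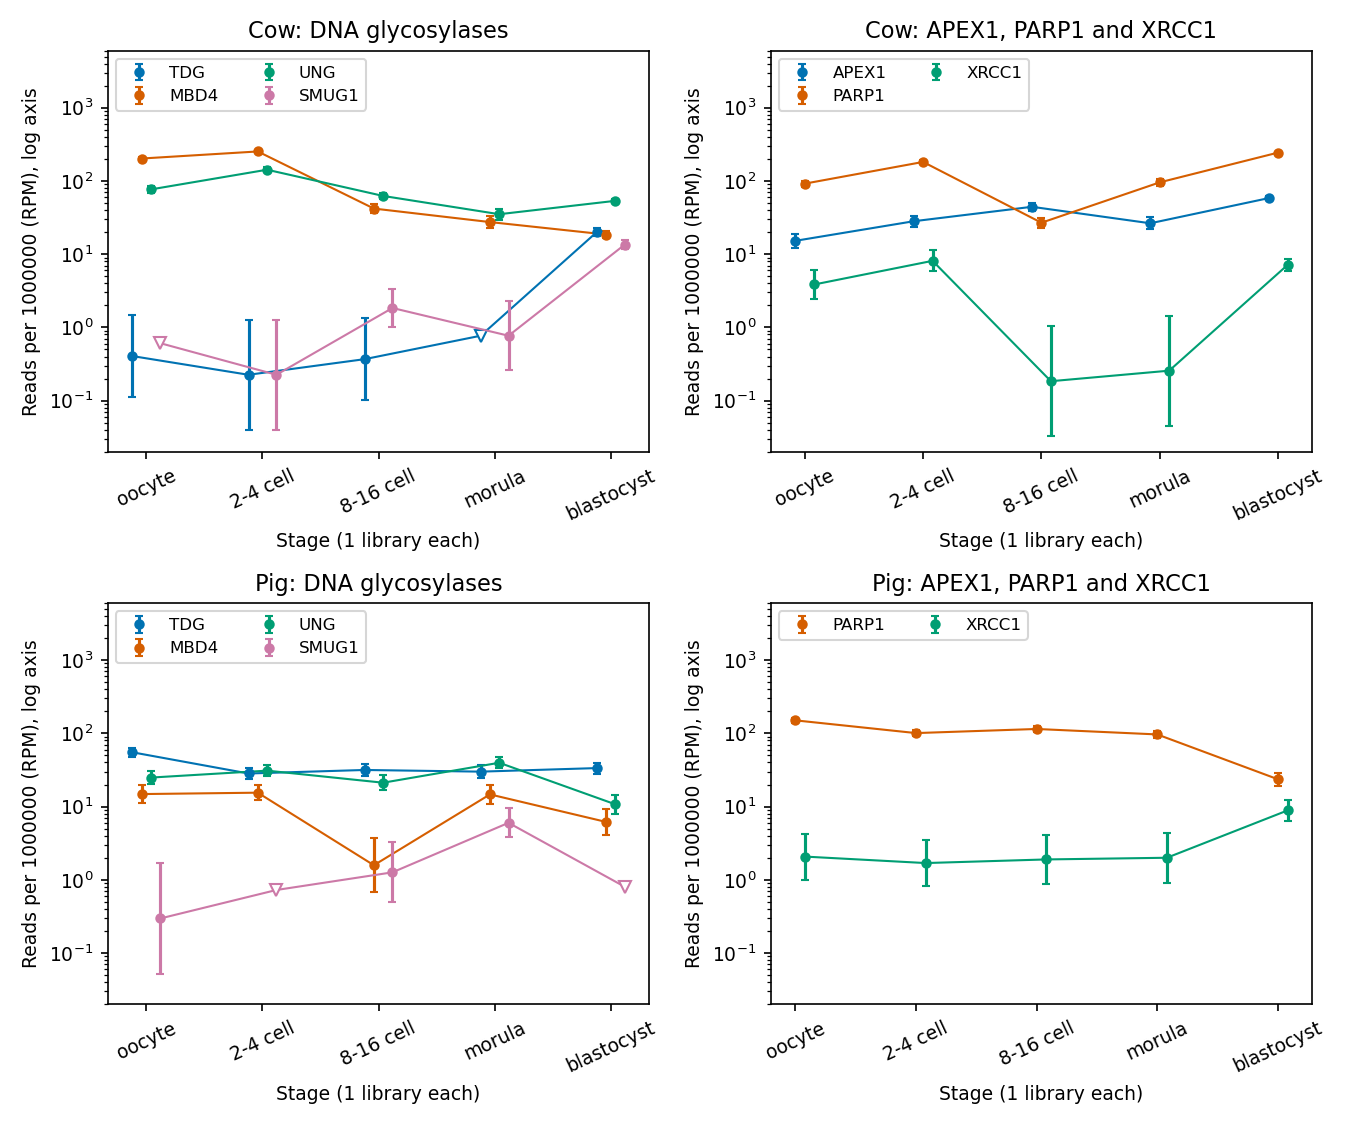
Levels in RPM on a log axis against stage for the glycosylases (left) and for APEX1, PARP1 and XRCC1 (right), cow above and pig below, 1 library per point with 95% Wilson intervals. Open triangles mark 0 reads and are drawn at the level of 3 reads; pig has no APEX1 row. Cow TDG and SMUG1 reach 20.03 and 13.5 RPM in the blastocyst library, and cow XRCC1 has 1 read in both the 8-16 cell and morula libraries.

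Counted by step, no member passed the threshold from the oocyte to the 2-4 cell stage in either species. In cow none of 8 compared members rose or fell at that step, where 0.196% of 11226 genes rose and 0.178% fell. All 8 had values above 0, as did 66.8% of all genes. Their log2 differences were 0.11 to 0.98, with a median of 0.81, against a median of 0.27 for all genes. With median scaling TET1 and TET2 turned to -0.07 and -0.16. At the cow 8-16 cell stage 1 of 9 members rose (TET1; 12.6% of all genes) and 3 fell (MBD4, PARP1 and XRCC1; 14.6%), with a member median of -1.53 against -0.44 for all genes. At the cow morula none of 8 rose (6.67%) and 1 fell (TET3; 5.15%). At the cow blastocyst 4 of 10 rose (TET3, TDG, SMUG1 and XRCC1; 11.9%) and none fell (11.5%), with a median of 1.23 against -0.11. Over the whole course in cow 3 of 10 rose (TET1, TDG and SMUG1; 21.8%) and 2 fell (TET2 and MBD4; 18.4%).

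In pig none of 8 compared members rose or fell from the oocyte to the 2-4 cell stage, where 3.26% of genes rose and 2.17% fell. At the pig 8-16 cell stage none of 9 rose (4.33%) and 1 fell (MBD4; 0.543%). At the pig morula 2 of 9 rose (TET1 and MBD4; 12% of genes) and 1 fell (TET3; 11.3%). At the pig blastocyst 1 of 9 rose (TET2; 13.8%) and 1 fell (SMUG1; 13.8%). Over the whole course in pig 2 of 8 rose (TET1 and TET2; 26%) and 2 fell (TET3 and PARP1; 19.2%). The pig member medians at the last 2 steps were 0.05 and 0.16, against 0.18 and -0.11 for all genes. Over the whole course the member median was -0.92 in pig, against 0.43 for all genes, and 1.07 in cow, against 0.18. Over the whole course the shares of members that rose or fell lay near those of all genes, and the counts are no result about the members.

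**Figure D4:**
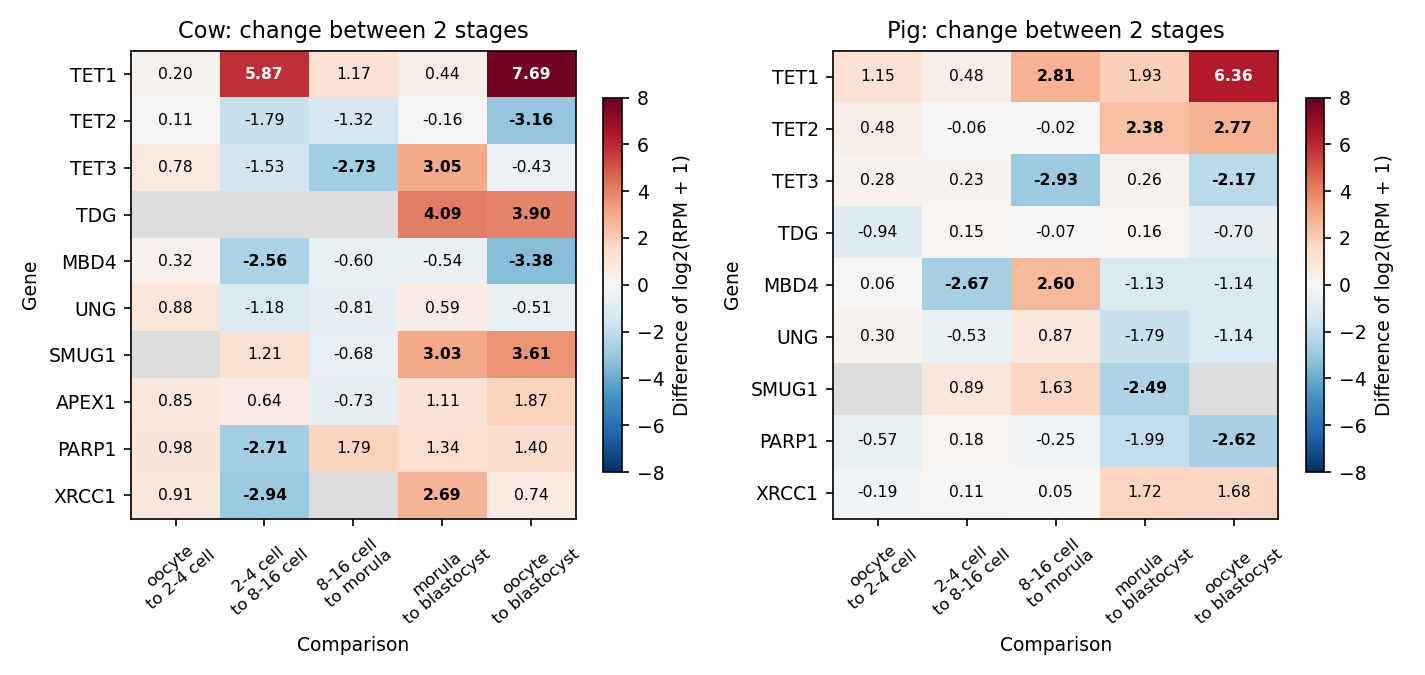
Differences of log2(RPM + 1), later minus earlier stage, for each member (rows) and comparison (columns) in cow (left) and pig (right), with red for higher and blue for lower. Bold values reach 2 in size and grey cells had under 1 RPM in both libraries. The cow 8-16 cell column holds TET1 at 5.87 beside MBD4, PARP1 and XRCC1 below -2.

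The highest level of each cow member fell at 1 of 2 stages. TET2, TET3, MBD4, UNG and XRCC1 had their highest cow level at the 2-4 cell stage and the other 5 members in the blastocyst library, where 26.2% and 27.6% of 14078 genes had theirs. The interval of the highest library overlapped that of the next for cow TET2 and XRCC1. In pig the highest level fell in the oocyte library for TDG and PARP1, at the 2-4 cell stage for MBD4, at the 8-16 cell stage for TET3, in the morula library for UNG and SMUG1 and in the blastocyst library for TET1, TET2 and XRCC1. Of 14050 pig genes 18.5%, 10.5%, 13.9%, 24.5% and 32.6% had their highest level at these stages, in that order. The highest and next intervals overlapped for pig TET3, MBD4 and UNG.

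Changes within each species were then set side by side. From oocyte to blastocyst 5 of the 8 members compared in both species had the same sign, 62.5%, against 68.4% of 8567 shared symbols. TET1 rose in both and TET2 fell in cow and rose in pig. Of all shared symbols that passed the threshold in both species, 1682 moved the same way and 260 opposite ways. TDG (3.90 in cow and -0.70 in pig) and PARP1 (1.40 and -2.62) also had opposite signs. TET3, MBD4, UNG and XRCC1 had the same sign in both, with log2 differences of -0.43 and -2.17, -3.38 and -1.14, -0.51 and -1.14, and 0.74 and 1.68.

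**Figure D5:**
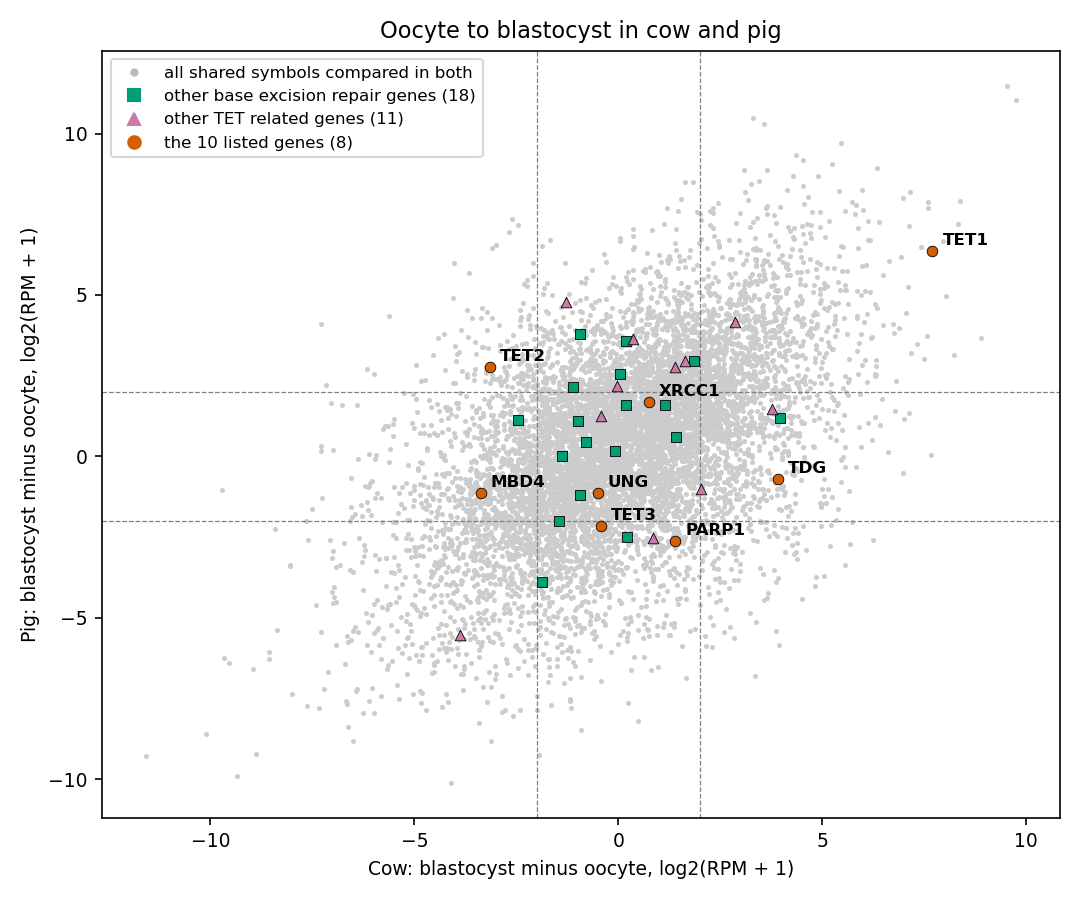
Difference of log2(RPM + 1) from oocyte to blastocyst in cow (x axis) and pig (y axis); grey points are the 8567 shared symbols compared in both, circles the 8 listed genes, squares other base excision repair genes and triangles other TET related genes. Dashed lines mark the threshold of 2. TET1 lies at the upper right (7.69 and 6.36) and TET2 at the upper left (-3.16 and 2.77).

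Of 23 other base excision repair genes (further glycosylases, end-processing enzymes, polymerases and ligases), 23 had a cow row and 19 a pig row. From oocyte to blastocyst 1 of 23 rose in cow (21.8% of all genes), 3 fell (18.4%) and 19 did neither, with a median of -0.09 against 0.18 for all genes. The genes are named here after their values were seen: FEN1, the flap endonuclease of long-patch repair, rose from 1.42 to 36.5 RPM, while the glycosylases NEIL2 and NEIL3 fell from 20.1 to 1.13 RPM and from 384 to 27.2 RPM, and LIG1, the replicative DNA ligase, from 516 to 93.6 RPM. In pig 5 of 18 compared genes rose, near the 26% of all genes, 2 fell (19.2%) and 11 did neither, with a median of 1.12 (0.73 with counts under 3 taken as 3) against 0.43. PARP2, a second nick sensor, rose from 16.6 to 244 RPM, HMGB1, an abundant chromatin protein, from 65.1 to 510.2 RPM, MPG, the alkyladenine glycosylase, from 2 reads to 17.96 RPM, and POLD1, a replicative polymerase subunit, from 3 reads to 10.2 RPM. LIG3, the ligase partner of XRCC1, fell from 319 to 55.5 RPM and PCNA, the replication clamp, from 2962 to 199 RPM. None of these 18 genes passed the threshold in both species, where 1942 of 8567 shared symbols did.

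A list of 18 genes tied to TET activity (enzymes of alpha-ketoglutarate metabolism, TET partners, deaminases, GADD45 proteins, readers of hydroxymethylcytosine and vitamin C transporters) had 17 cow rows and 16 pig rows. In cow 5 of 15 compared genes rose (21.8% of all genes) and 2 fell (18.4%), with a median of 1.40 (0.95 with counts under 3 taken as 3), and in pig 6 of 12 rose (26%) and 2 fell (19.2%), with a median of 1.83, against 0.18 and 0.43 for all genes. In cow IDH1 and IDH3A, which make alpha-ketoglutarate, rose from 62.07 to 346 RPM and from 6.49 to 100.1 RPM, the vitamin C transporter SLC23A1 also rose, and APOBEC2 fell. In pig GADD45A rose from 1.18 to 59.5 RPM, IDH2, OGT, CXXC5 and GADD45B also rose, and HMCES fell from 64.8 to 10.5 RPM. These names too were chosen after their values were seen. UHRF2 fell in both species. UHRF2, which binds hydroxymethylcytosine, stood at 1016, 818, 418, 285 and 68.2 RPM over the cow stages and at 6436, 6751, 4835, 541 and 137 RPM over the pig stages, and fell 14.9-fold (13.9 to 15.99) and 46.98-fold (43.03 to 51.4).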

How the data were processed

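Each deposited table held log2 values per gene and stage. Per the submitters' processing notes, Trim Galore 0.6.4 and HISAT2 2.1.0 were used; the notes list the builds UMD3.1 and Sscrofa11.1 without a role, taken here as the cow and pig builds of the coordinates in the deposited tables. Counting method, annotation and strand are not given in the sources used here. In each column the values above the lowest were whole multiples of the second lowest (99.98% or more, within 0.1 of a read), so reads and library totals were recovered; genes without reads carry 0.9 of a read, which was kept in log2 differences. Differences were taken within a species on log2(RPM + 1), with a minimum of 1 RPM and a threshold of 2. Level intervals are Wilson, fold intervals exact conditional (Clopper-Pearson) and ratio intervals Wald, all at 95% (Python 3.11.15, scipy 1.17.1). The members and lists were chosen with earlier results of these data known. Named were all members, the 3 symbols nearest to each TET gene, and list genes past the threshold in both species; some genes that these rules or the list counts take in are not reported here.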

Additional observations from a re-analysis of the deposited data

Results flagged for a closer look

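TET2 passed the threshold in opposite directions in cow and pig from oocyte to blastocyst: its log2 difference in pig exceeded that in cow by 5.93. SMUG1 did so from the morula to the blastocyst, where its log2 difference in pig minus that in cow was -5.53, resting on 18 and 0 reads in pig and on 3 and 191 reads in cow. With 1 library per stage, the difference between the species was not tested for either gene.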

How the results depend on the processing

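Of 140 counts of members under 7 alternatives, 128 stayed within 1.5 times the reported count. A threshold of 1 in place of 2 gave 2 higher and 6 lower members at the cow 8-16 cell stage, 2 higher and 2 lower at the cow morula, 5 higher over the whole cow course, 1 higher at the first pig step, 3 higher and 4 lower at the pig blastocyst and 4 lower over the whole pig course. At the pig blastocyst a pseudocount of 0.5 RPM, or scaling to reads in non-mitochondrial gene rows, gave 2 lower members (PARP1 at -2.01 and -2.03), and median scaling gave 2 higher (TET1 at 2.04). A minimum of 5 RPM, no minimum, and 0 reads taken as 0 RPM, the last added after the data were seen, moved no count by that much. Over 609 single differences no called member changed its sign; 7 differences that were not called did with a change of scale, all of them under 0.2 in size. Scaling to non-mitochondrial gene reads moved the median of all genes by 0.38 in cow and 0.12 in pig from oocyte to blastocyst, so differences of that size are not separate from scale. Of the single differences, 25 passed the threshold under an alternative only, and 21 of these did so because the threshold was 1. The others were 2 with scaling to non-mitochondrial gene reads, 1 with median scaling and 1 with the pseudocount of 0.5 RPM. Adding 1 read in place of 0.5 left all 45 ratio shifts with over 3 reads within their intervals. No member had repeated rows, so summing rows was not run.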

Other observations

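Several genes of the lists had their highest level at a middle stage. They were chosen here after their values were seen. Of 14078 cow genes, 15.5% had their highest level at the 8-16 cell stage and 19.4% in the morula library. In pig 24.5% of 14050 genes had theirs in the morula library. GADD45A, a stress-response protein linked to DNA repair, stood at 369 RPM in the cow 8-16 cell library, against 61.1 and 71.9 RPM before and 36.2 and 24.6 RPM after it. SLC23A2, a vitamin C transporter, stood at 86.7 RPM in the cow morula library, against 16.8 RPM one stage before and 8.67 RPM one stage after. PARG, which removes the poly(ADP-ribose) chains that PARP1 makes, was highest in the morula library in both species, at 247 RPM in cow (45.2 RPM in the oocyte library and 122 RPM in the blastocyst library) and at 162 RPM in pig (29.6 and 45.6 RPM). OGT, the enzyme that adds GlcNAc and binds TET proteins, stood at 443 RPM in the cow morula library and at 89.8 RPM in the cow blastocyst library; in pig these were 119 and 101 RPM.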
